A study of Mus musculus with 3 samples.

Results

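The Cd209 C-type lectin family of the mouse was examined in sorted heart macrophages through 6 genes, Cd209a, Cd209b, Cd209d, Cd209f, Cd209g and Clec10a, out of 30406 genes shared by the 3 libraries. The genes were taken by symbol. They had been chosen by their measured levels in these same libraries, in macrophages split by Lyve1 and Ccr2 and in cells with little C1q, so levels along those lines are given as a description with no test. All 6 were found in each library.

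Hearts came from wild type mice, 32 to 34 weeks old, on a high fat diet (HFD), a Western diet (WD) or a control diet (CD) as the series title names them. The cells had been sorted as CD45+, F4/80+ and CD11b+, with doublets excluded at the sort per the labels. The sources used here do not give the diets' composition, the time on diet or the number of animals behind a library. Each diet has 1 library of single-cell RNA counts from a 10x Genomics 3′ kit, so a difference between diets has no replicate check and no p-value is given.

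CD209 proteins are receptors of the cell membrane that bind sugars on microbes and glycoproteins through a calcium-dependent lectin domain. The human receptor of this name is DC-SIGN, and the mouse has a cluster of related genes. Cd209a is known from dendritic cells and monocyte-derived cells, Cd209b encodes SIGNR1, which binds bacterial polysaccharides on macrophages of the splenic marginal zone and the peritoneum, and Cd209d encodes SIGNR3. Cd209f and Cd209g are less studied relatives. Clec10a encodes a galactose-type lectin of macrophages and dendritic cells. In the heart, Lyve1 marks resident macrophages and Ccr2 marks cells that descend from blood monocytes.

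In build GRCm38 (GENCODE vM21), 7 Cd209 genes lie within 394311 bases of chromosome 8, from 3743397 to 4137707. Cd209a occupies chr8:3743397-3748984, Cd209d chr8:3871824-3878555, Cd209b chr8:3917655-3926844 and Cd209f chr8:4102787-4105835, all on the minus strand. Cd209g occupies chr8:4134098-4137707 on the plus strand, 28262 bases from Cd209f. Clec10a lies on another chromosome, at chr11:70156197-70170834 on the plus strand, near its relative Mgl2 at chr11:70130329-70137550. Transcripts of Cd209f and Cd209g were 92.4% identical over 1153 aligned bases, and those of Cd209a and Cd209f 75.96% over 391. Of the windows of 50 bases in the last 500 bases of each Cd209 member, 0 of 451 occurred in another gene compared. For Clec10a 92 of 451 (20.4%) also occurred in Mgl2, so its counts are uncertain to that extent.

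The sequence before the RefSeq start of Cd209f and Cd209g is shown because these neighbours were found in the same cells, and that before Cd209a because it was highest in other cells. The sequences are from RefSeq (GRCm38.p6), on the strand of each gene, from 250 bases before its RefSeq start up to the first exon of a coding transcript. The stretch of Cd209g lies inside the GENCODE gene span given above, which begins at 4134098. Capitals mark the AP-1 motif TGAGTCA, searched on both strands.
Cd209f (chr8:4105836-4106014, minus strand): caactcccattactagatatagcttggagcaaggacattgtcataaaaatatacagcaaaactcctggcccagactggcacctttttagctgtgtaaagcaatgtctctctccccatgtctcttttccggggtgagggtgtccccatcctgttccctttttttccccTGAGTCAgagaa
Cd209g (chr8:4134486-4134651, plus strand): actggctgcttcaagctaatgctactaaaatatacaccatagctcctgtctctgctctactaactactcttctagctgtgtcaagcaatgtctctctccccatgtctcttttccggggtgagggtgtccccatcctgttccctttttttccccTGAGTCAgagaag
Cd209a (chr8:3748985-3749234, minus strand): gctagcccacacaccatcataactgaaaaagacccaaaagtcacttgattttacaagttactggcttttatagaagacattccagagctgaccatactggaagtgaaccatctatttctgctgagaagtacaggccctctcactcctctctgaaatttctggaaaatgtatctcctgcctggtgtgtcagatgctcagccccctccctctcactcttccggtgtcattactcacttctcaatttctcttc
The printed parts of Cd209f and Cd209g aligned over 134 bases, with 122 identical (91.0%) and a shared run of 83 bases. The AP-1 motif began 83 bases before the RefSeq start of Cd209f and 97 before that of Cd209g. It occurred in 4.46% of 32817 windows of 250 bases, and not in those of Cd209a, Cd209b and Cd209d. TATAAA, in 12.4% of all windows, began 29 bases before the start of Cd209f and 43 before that of Cd209g, past the printed parts, and 184 before that of Cd209a on the other strand. CTTCCGG, a motif of ETS factors in 6.90% of all windows, began 36 bases before the start of Cd209a and 39 before that of Cd209b. GAGGAA, a core of the PU.1 motif in 23.3% of all windows, began 110 bases before the start of Cd209d on the other strand. A match describes the letters of a window and is not a binding site. No window of Clec10a was used here.

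**Figure D1:**
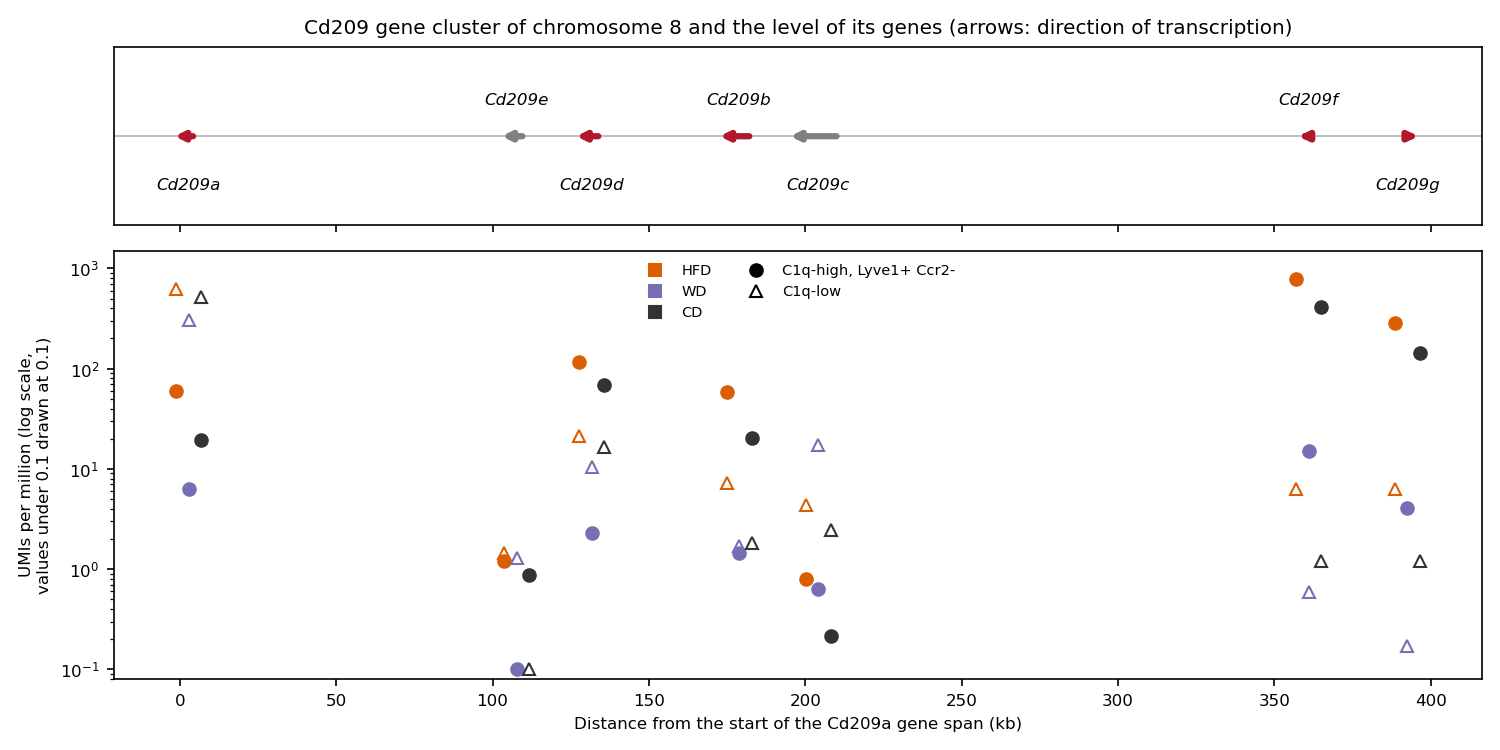
Upper panel: the 7 Cd209 genes along chromosome 8 by distance in kb from the start of the Cd209a span, with the direction of transcription. Lower panel: the level of each gene in CPM (its UMIs per 1000000 UMIs of the cells, log scale) in Lyve1+ Ccr2- macrophages (circles) and in cells with C1q under 0.3% of UMIs, called C1q-low (triangles), of the HFD, WD and CD libraries. Cd209f in HFD and CD stands at 776 and 412 in the macrophages and at 6.24 and 1.22 in C1q-low cells, and Cd209a is higher in C1q-low cells.

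Cells were barcodes with 1000 or more UMIs (molecules told apart by their random tags), 200 or more genes and no more than 10% of UMIs from mitochondrial genes, which left 2717 HFD, 4775 WD and 2679 CD cells with medians of 2751, 11668 and 4223 UMIs. The WD library stands apart: it was processed with software 7.2.0 against 3.0.1, its file lists 6885 barcodes of at least 504 UMIs each, and it shares 0 cell barcodes with HFD and 1 with CD, where HFD and CD share 15. Cells with C1qa, C1qb and C1qc at 0.3% of UMIs or more are called C1q-high, and those below C1q-low. C1q-high cells numbered 2002 in HFD, 3717 in WD and 2293 in CD, with median C1q of 2.25%, 0.80% and 2.17% of UMIs. Those of each library held all 9 macrophage markers, at 24930.2, 11329 and 22863 CPM in sum. C1qa, C1qb and C1qc are among the 9, so these sums are largely set by the C1q rule and are no check of cell identity. Between 0.2 and 0.4% of UMIs lay 25 HFD, 444 WD and 27 CD cells. Intervals below are exact 95% intervals, the limit that 0 counts allow is that of 3 counts, and both cover counting error only. The 3′ UMIs are not divided by transcript length, so levels are compared within a gene. In sums over a class, fewer cells with a gene and less RNA per cell cannot be told apart.

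Cd209f, Cd209g, Cd209d and Cd209b were found mostly in C1q-high cells with Lyve1 and without Ccr2 in HFD and CD. Cd209f had 776 (742 to 812) CPM in 697 Lyve1+ Ccr2- cells of HFD, against 15.7 (9.83 to 23.7) in 346 Lyve1- Ccr2+ cells. In WD it had 15.001 (13.7 to 16.4) CPM in 2211 Lyve1+ Ccr2- cells, against 0 UMIs in 293 Lyve1- Ccr2+ cells, which allows up to 0.675 CPM by a floor of 3 counts. In CD it had 412 (394 to 431) CPM in 932 Lyve1+ Ccr2- cells, against 23.5 (17.7 to 30.6) in 440 Lyve1- Ccr2+ cells. The intervals of the classes did not overlap in HFD or CD. In the Lyve1- Ccr2+ cells of CD a single cell held 24 of the 55 UMIs. The CD log2 ratio of 4.13 was 2.34 with Lyve1 and Ccr2 read after thinning each cell to 1000 UMIs, and 7.51 with all counts so thinned. With the first of these settings those of Cd209g and Cd209d in CD, 4.31 and 4.33, were 2.83 and 2.34. Of the Cd209f UMIs in all passing cells, 79.98% in HFD, 72.7% in WD and 67.6% in CD lay in Lyve1+ Ccr2- cells, which held 28.6%, 44.3% and 35.5% of all UMIs. Cd209f was found in 23.96%, 4.79% and 24.8% of these cells, at medians of 3283, 12079 and 4702 UMIs. Endothelial-marked cells, which should lack the gene, had it in 1.57% of 510 HFD and 0.495% of 202 CD cells, at medians of 1855.5 and 2690 UMIs.

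Cd209g, the neighbour of Cd209f, had 283 (263 to 305) CPM in Lyve1+ Ccr2- cells of HFD against 7.84 (3.91 to 14.03) in Lyve1- Ccr2+ cells. In WD it had 4.07 (3.39 to 4.83) CPM against 1 UMI, and in CD 144 (133 to 156) CPM against 7.26 (4.23 to 11.6). The order of the classes was that of Cd209f in each library. Cd209g made up 27.7% (26.2 to 29.2) of the summed Cd209f and Cd209g UMIs of C1q-high cells in HFD, 22.4% (19.6 to 25.4) in WD and 26.0% (24.6 to 27.4) in CD, of 3312, 835 and 3809 UMIs.

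Cd209d, the SIGNR3 gene, had 116 (103 to 129.8) CPM in Lyve1+ Ccr2- cells of HFD against 7.13 (3.42 to 13.1) in Lyve1- Ccr2+ cells, and 68.95 (61.6 to 76.9) against 3.42 (1.48 to 6.73) in CD. In WD the order was the other way round, with 2.27 (1.78 to 2.86) CPM (72 UMIs) in Lyve1+ Ccr2- cells and 4.50 (2.75 to 6.95) (20 UMIs) in Lyve1- Ccr2+ cells, where a single cell held 10 of the 20. Without C1q-high cells that held 2 or more markers of another class, the WD log2 ratio was 0.23 in place of -0.99. Cd209b, the SIGNR1 gene, had 58.02 (48.9 to 68.3) CPM in Lyve1+ Ccr2- cells against 5 UMIs in Lyve1- Ccr2+ cells of HFD, 1.45 (1.06 to 1.93) CPM against 0 UMIs in WD, and 20.1 (16.2 to 24.6) CPM against 1 UMI in CD. Against a floor of 3 counts per library, Cd209f of WD was at least 22.2-fold and Cd209b of WD at least 2.15-fold higher in Lyve1+ Ccr2- cells.

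Clec10a, the galactose-type lectin, was spread more widely. It had 368 (344 to 393) CPM in Lyve1+ Ccr2- cells of HFD against 68.4 (55.4 to 83.5) in Lyve1- Ccr2+ cells. The values were 86.9 (83.6 to 90.2) against 32.6 (27.5 to 38.4) in WD, and 289.6 (274 to 306) against 68.8 (58.6 to 80.3) in CD. Its ratio between these classes was 5.38 (4.35 to 6.71) in HFD, 2.66 (2.25 to 3.17) in WD and 4.21 (3.57 to 4.99) in CD, while that of Cd209f was 49.5 (32.6 to 79.2) in HFD and 17.5 (13.4 to 23.4) in CD. In cells with neither Lyve1 nor Ccr2, Clec10a had 137 (122 to 153) CPM in HFD, 13.04 (10.4 to 16.1) in WD and 152 (138 to 168) in CD.

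Cd209a, the gene of dendritic and monocyte-derived cells, had the opposite order within C1q-high cells, by a margin that depended on the processing in HFD and CD. Lyve1+ Ccr2- cells had 60.4 (51.2 to 70.9) CPM against 98.3 (82.6 to 116) in Lyve1- Ccr2+ cells of HFD, 6.30 (5.46 to 7.24) against 88.7 (80.1 to 97.9) in WD, and 19.5 (15.6 to 23.9) against 60.2 (50.7 to 71.04) in CD. Among the 4 classes it stood highest in cells with both genes, at 221 (172 to 279) CPM in 53 HFD cells, 111 (106 to 116) in 521 WD cells and 90.5 (77.1 to 106) in 199 CD cells. In HFD a single cell held 40 of the 70 UMIs behind that level. Those cells also had the highest median UMIs of the 4 classes, 4528, 28267 and 8465, and the part of depth in this was not tested. With C1q set at 1% of UMIs the HFD order reversed (log2 ratio 0.88), as it did without the 5% of cells with the most UMIs (0.17). The HFD log2 ratio of -0.70 was -0.13 with cells weighted equally and -0.15 with counts thinned. The CD log2 ratio of -1.63 was -0.10 with C1q at 1% and -0.58 with counts thinned, and none of these 4 values was past the rule given next. In WD it was -1.44 in place of -3.81 with Lyve1 and Ccr2 read after thinning.

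A member was called higher or lower when its ratio passed 1.5-fold with an interval clear of 1. By that rule 5 of 6 members were higher and Cd209a was lower in Lyve1+ Ccr2- than in Lyve1- Ccr2+ cells of HFD and of CD, the last except under the settings named above. In WD 4 of 6 were higher, and Cd209a and Cd209d were lower. Of all genes with at least 20 UMIs, 15.5% were called higher and 6.19% lower in HFD, 10.6% and 9.89% in WD, and 12.2% and 8.43% in CD. This split helped to choose the members, so nothing is read from their counts.

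**Figure D2:**
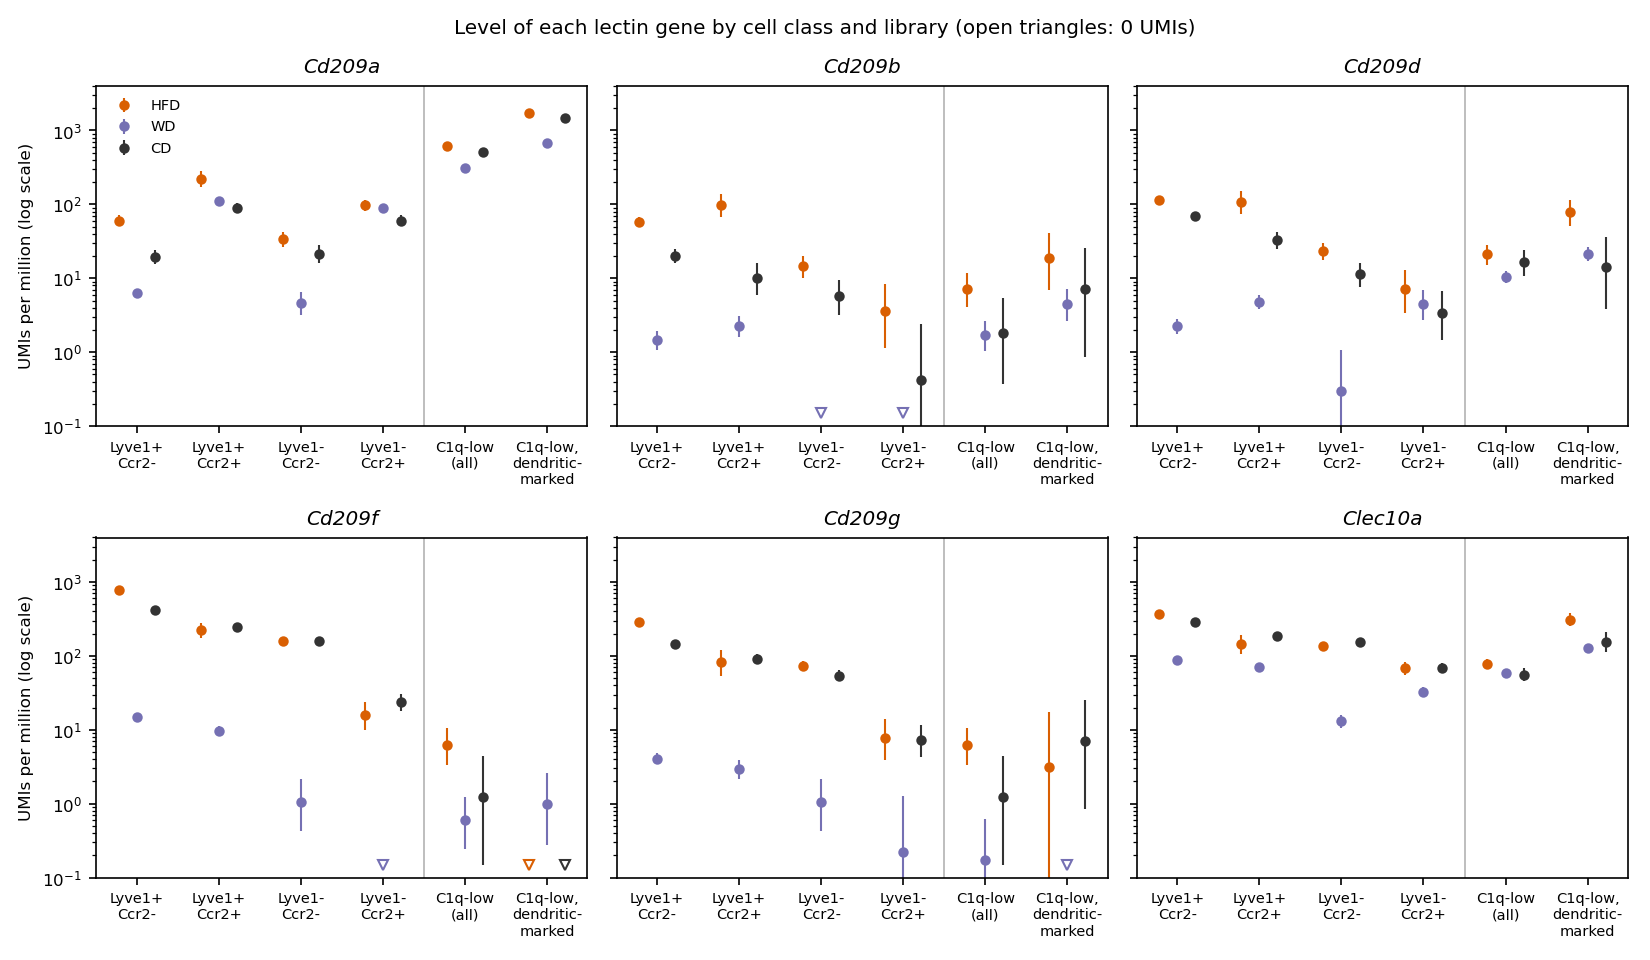
Level of each of the 6 genes in CPM (log scale) by cell class in the HFD, WD and CD libraries, with 95% counting intervals as bars and open triangles for 0 UMIs. Cd209f stands at 776 in HFD, 15.001 in WD and 412 in CD in Lyve1+ Ccr2- macrophages, and Cd209a at 1726, 678 and 1462 in dendritic-marked cells.

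Below the C1q threshold Cd209a was the member at the highest level. The 715 C1q-low cells of HFD had 619 (586 to 654) CPM, the 1058 of WD 307 (297 to 317) and the 386 of CD 517 (483 to 553). These were 9.31 (8.34 to 10.4), 7.30 (6.94 to 7.69) and 13.1 (11.7 to 14.7) times the level in C1q-high cells of the same library. Cd209f had 13, 7 and 2 UMIs in the same C1q-low cells of HFD, WD and CD. The 2 genes thus had opposite orders across the threshold. In WD Cd209d was also higher below it, with 41.1% of its UMIs in C1q-low cells, which held 16.4% of all UMIs. In HFD and CD those cells held 10.2% and 6.09% of the Cd209d UMIs, with 24.0% and 12.6% of all UMIs.

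C1q-low cells were called dendritic-marked when they held at least 2 of 12 dendritic markers, among them Flt3, Zbtb46, Xcr1 and Clec9a, and more of them than of any other class. No member is among the 12. These 12 were not confined to the class, and summed to 733 CPM in NK or T cell-marked cells of WD. In endothelial-marked cells they summed to 319 CPM in HFD and 389 in CD. The sums were 1031 CPM in HFD, 946 in WD and 1036 in CD in dendritic-marked cells. Cd209a had 1726 (1585 to 1876) CPM in the 56 such cells of HFD, 678 (652 to 704) in the 216 of WD and 1462 (1325 to 1611) in the 36 of CD. It was found in 75%, 62.04% and 75% of them, and their macrophage markers summed to 623, 1626 and 724 CPM. The C1q genes among those markers are low there by the C1q-low rule. Clec10a was also present, at 308 (251 to 376) CPM in HFD, 127 (116 to 139) in WD and 156 (113 to 209.7) in CD. Cd209d had 77.9 (50.4 to 115) CPM in HFD, 21.6 (17.2 to 26.6) in WD and 14.2 (3.87 to 36.4) in CD. Cd209f had 0 UMIs in HFD, 4 in WD and 0 in CD, and 0 of 56 HFD cells allows a share of up to 5.36% of cells with a UMI by the floor of 3 counts.

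The dendritic-marked cells held 42.9% (40.2 to 45.7) of the Cd209a UMIs of C1q-low cells in HFD, 75.3% (73.8 to 76.7) in WD and 48.5% (45.1 to 51.9) in CD. That share depended on the number of markers asked for, and with at least 3 it was 15.4% in HFD, 67.1% in WD and 9.18% in CD. With at least 1 it was 62.9% in HFD and 74.8% in CD. Dendritic-marked cells had medians of 5765 UMIs in HFD, 16337.5 in WD and 7369.5 in CD, and the part of depth in their share was not tested. C1q-low cells with no marker class had 1552 (1437 to 1673) CPM in 50.9% of 116 HFD cells, 105 (93.7 to 118) in 9.51% of 368 WD cells and 1219 (1101 to 1346) in 54.4% of 57 CD cells. Cd209a was thus high in unclassed cells of HFD and CD and less so in those of WD. The median C1q of the unclassed cells was 0.041% of UMIs in HFD, 0.140% in WD and 0.049% in CD. They may thus be unlike cells, and the part of this in the Cd209a levels was not tested. As a background, endothelial-marked cells had Cd209a in 2.16% of HFD and 0.990% of CD cells. NK or T cell-marked cells of WD had it in 3.98% of 176 cells at a median of 7048.5 UMIs, where 7 cells held 272 UMIs (199 CPM), and Cd209f in 0 of them, which allows up to 1.70% by the same floor. A single cell held 144 of the 272.

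Cd209a-positive C1q-low cells carried the antigen presentation gene H2-Ab1 at 24244 CPM against 3190.1 in Cd209a-negative C1q-low cells of HFD, 6561 against 2435 in WD, and 20602 against 2581 in CD. Mgl2 had 2013 against 124 CPM in HFD, 526 against 113 in WD and 1909.9 against 68.6 in CD. Both genes were higher in the positive cells of each library. Of the dendritic markers, Flt3 had 62.4 against 8.82 CPM in HFD, 85.4 against 33.3 in WD and 42.5 against 4.73 in CD. Zbtb46 went the other way in HFD, with 14.1 against 29.6 CPM, and in CD, with 18.6 against 24.5. In WD it had 35.5 against 21.3 CPM. The positive cells of HFD and of CD held 7 Zbtb46 UMIs each. Many negative cells of HFD and CD were endothelial-marked. Of the 715 C1q-low cells of HFD 510 were so marked, and of these 11 had Cd209a, and of the 386 of CD 202 were, with 2. Above the C1q threshold, at least 2 of the 12 dendritic markers were held by 3.01% of Cd209a-positive against 0.696% of Cd209a-negative cells in HFD, by 57.4% against 22.2% in WD and by 12.3% against 1.70% in CD. The positive cells were deeper, with medians of 3695 against 2889 UMIs in HFD, 25941 against 11927.5 in WD and 6007 against 4253 in CD. The part of depth and of doublets in this was not tested.

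**Figure D3:**
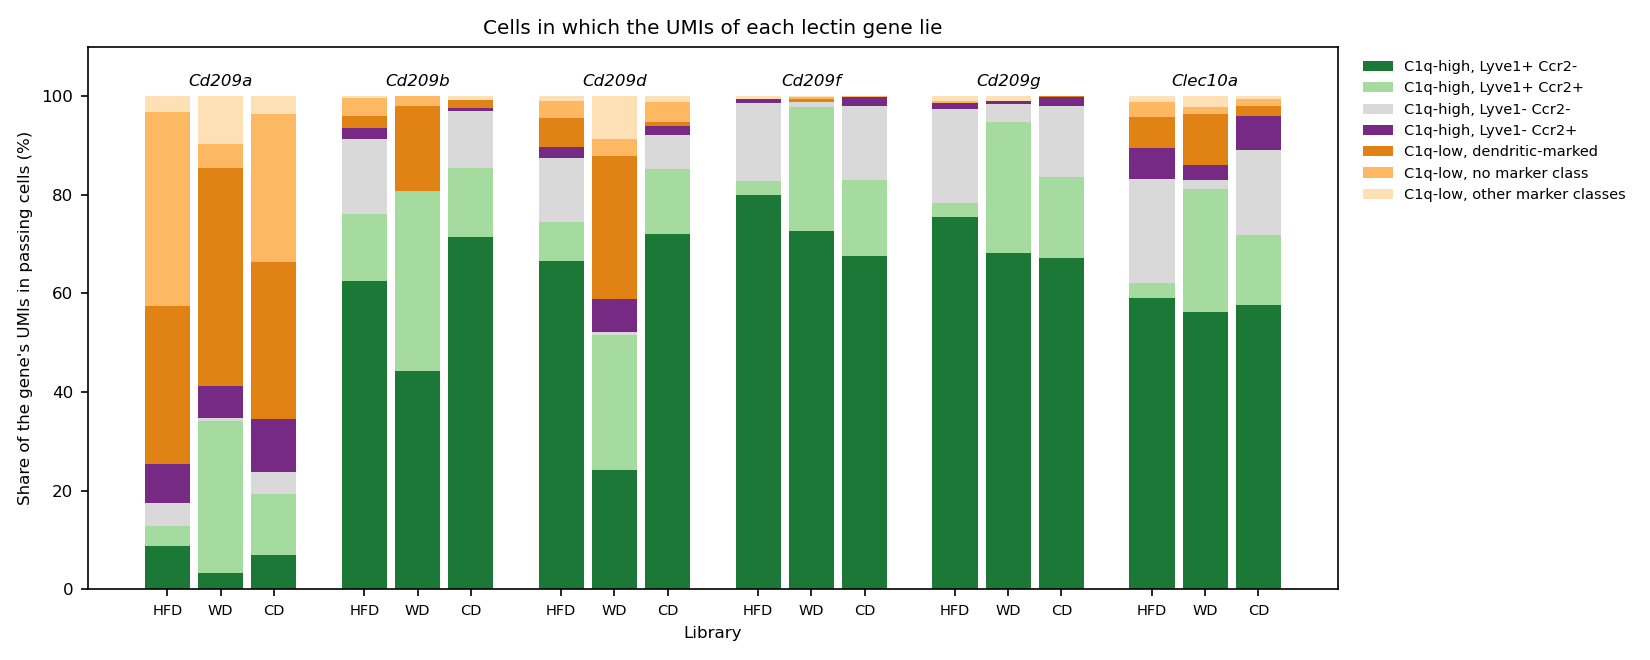
Share (%) of each gene's UMIs in passing cells that lies in each cell class, as stacked bars for the HFD, WD and CD libraries. Lyve1+ Ccr2- macrophages hold 79.98% of Cd209f in HFD, 72.7% in WD and 67.6% in CD, and dendritic-marked cells hold 32.04%, 44.3% and 31.7% of Cd209a.

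Over all C1q-high cells, 4 of 6 members were higher in HFD than in CD and 0 were lower, in a comparison that called 4.38% of 11239 genes higher and 5.85% lower. Cd209b had 32.6 (28.4 to 37.2) CPM in HFD and 11.2 (9.30 to 13.3) in CD, a ratio of 2.92 (2.34 to 3.67). Cd209a had 66.5 (60.5 to 73.1) CPM in HFD and 39.4 (35.9 to 43.2) in CD, a ratio of 1.69 (1.48 to 1.93). The HFD and CD intervals of these CPM lie apart for both genes, while those of the thinned share of cells with Cd209b, given below, overlap. Cd209d had 58.7 (52.96 to 64.8) CPM in HFD and 36.5 (33.1 to 40.2) in CD, a ratio of 1.61 (1.39 to 1.85). Cd209g had 139 (130.1 to 148) CPM in HFD and 86.9 (81.6 to 92.5) in CD, a ratio of 1.60 (1.46 to 1.75). Cd209f lay just under 1.5-fold. It had 363 (349 to 378) CPM in HFD and 248 (238 to 257) in CD, a ratio of 1.47 (1.39 to 1.55). Clec10a had 209.6 (199 to 221) CPM in HFD and 196 (188 to 205) in CD, a ratio of 1.07 (0.998 to 1.14) whose interval holds 1. The levels had served to choose the members, so this is a description of these 2 libraries.

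The HFD count changed with the processing. Without the 5% of cells with the most UMIs, 1 member was called higher, and 2 were with cells weighted equally or thinned to 1000 UMIs. Cd209f was called higher with at least 2000 UMIs per cell (log2 0.60), with up to 20% mitochondrial UMIs (0.59) and with ratios centred on the median gene (0.59). Without C1q-high cells that held 2 or more markers of another class, Cd209g was not called (0.51). The thinned share of C1q-high cells with Cd209f was 9.74% (8.48 to 11.1) in HFD and 9.38% (8.21 to 10.6) in CD, against 14.2% and 16.4% of cells before thinning, at medians of 2953.5 and 4319 UMIs. The thinned share with Clec10a was 13.8% (12.4 to 15.4) in HFD and 13.5% (12.1 to 14.99) in CD. For both genes the thinned intervals overlap. That with Cd209a was 3.40% (2.65 to 4.29) in HFD and 1.88% (1.36 to 2.52) in CD, with intervals apart. The thinned intervals of Cd209b, Cd209d and Cd209g overlap. The share with Cd209b was 1.45% (0.972 to 2.07) in HFD and 0.698% (0.399 to 1.13) in CD, against 2.65% and 2.44% before thinning. With Cd209d it was 3.30% (2.56 to 4.18) in HFD and 2.57% (1.96 to 3.31) in CD. With Cd209g it was 6.39% (5.36 to 7.56) in HFD and 5.10% (4.24 to 6.08) in CD. The 1% of C1q-high cells with the most UMIs of a gene held 79.5% of its UMIs in HFD and 70.1% in CD for Cd209b, and 54.9% and 61.9% for Cd209a.

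RNA outside cells moved with the HFD difference. Barcodes of at most 100 UMIs had 191 CPM of Cd209f in HFD and 78.8 in CD, 66.7 and 33.5 of Cd209g, and 33.02 and 8.69 of Cd209d. They had 17.4 CPM of Cd209b in HFD and 3.72 in CD, 63.01 and 42.8 of Cd209a, and 107 and 72.6 of Clec10a. All 6 were higher in HFD there with intervals apart, and their part in the levels of the cells was not tested.

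Within Lyve1+ Ccr2- cells 5 of 6 members were higher in HFD than in CD, beside 4.96% of 9774 genes called higher and 4.73% called lower. The ratio was 3.11 (2.38 to 4.08) for Cd209a, 2.89 (2.21 to 3.79) for Cd209b, 1.96 (1.76 to 2.19) for Cd209g, 1.88 (1.77 to 2.01) for Cd209f and 1.68 (1.42 to 1.97) for Cd209d. Clec10a, at 1.27 (1.17 to 1.38), stayed under 1.5-fold. The class rests on detection of Lyve1 and Ccr2 at unequal depths, with medians of 3283 UMIs in HFD and 4701.5 in CD. No split after thinning was made between libraries. In cells with neither Lyve1 nor Ccr2 the Cd209f ratio was 0.979 (0.850 to 1.13), at 157 (142 to 174) CPM in HFD and 161 (146 to 177) in CD, and in cells with both it was 0.908 (0.695 to 1.17). The Cd209a ratio was 1.57 (1.10 to 2.24) in cells with neither gene and 2.44 (1.82 to 3.25) in cells with both, where the single HFD cell named above held 40 of 70 UMIs. In cells with neither gene Cd209b had 14.6 (10.2 to 20.3) CPM in HFD and 5.67 (3.18 to 9.36) in CD. Cd209d had 23.4 (17.7 to 30.3) and 11.3 (7.66 to 16.2) there, Cd209g 73.9 and 54.1, and Clec10a 137 and 152. In cells with both, Cd209b had 97.9 CPM in HFD and 10.1 in CD, with 26 of its 31 HFD UMIs in a single cell. Cd209d had 107 and 33.2 in cells with both, Cd209g 82.1 and 91.7, and Clec10a 145 and 187. The thinned share of Lyve1+ Ccr2- cells with Cd209f was 18.5% (15.7 to 21.6) in HFD and 15.2% (12.99 to 17.7) in CD, and a positive cell held 11.5 and 8.25 UMIs on average before thinning. Among dendritic-marked cells Cd209a had an HFD over CD ratio of 1.18 (1.04 to 1.34).

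In WD 5 of 6 members were lower than in CD and Cd209a was called in neither direction, beside 43.4% of 14467 genes called higher and 25.3% called lower. Cd209g had 3.12 (2.69 to 3.61) CPM in WD and 86.9 in CD, 27.8-fold lower (23.8 to 32.7). Cd209f had 10.8 (10.01 to 11.7) CPM in WD and 248 in CD, 22.9-fold lower (20.98 to 24.9). The WD and CD intervals of both neighbours lie apart. Cd209d had 2.92 (2.51 to 3.39) CPM in WD and 36.5 in CD, 12.5-fold lower (10.4 to 14.99). Cd209b had 1.40 (1.12 to 1.74) CPM in WD and 11.2 in CD, 7.94-fold lower (5.98 to 10.6). Clec10a differed less. It had 70.3 (68.2 to 72.5) CPM in WD and 196 in CD, 2.79-fold lower (2.65 to 2.94). Cd209a had 41.99 (40.4 to 43.7) CPM in WD and 39.4 in CD, a ratio of 1.07 (0.963 to 1.18). The size of these differences changed with the range of C1q taken. C1q-high cells had a median C1q of 0.80% of UMIs in WD and 2.17% in CD, so a range of 0.3 to 1% takes unlike parts of these libraries. Among cells with C1q at 0.3 to 1% of UMIs, a restriction chosen after seeing the data, the WD over CD log2 ratio was -2.14 for Cd209g in place of -4.80, -1.75 for Cd209f in place of -4.51 and -1.32 for Cd209d in place of -3.64. Cd209b was no longer called there, at -0.47 in place of -2.99, and Clec10a was at -0.89 in place of -1.48.

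Against HFD all 6 members were lower in WD, beside 40.5% of 14412 genes called higher and 23.9% called lower, with the same WD library as above. Cd209g was 44.5-fold lower (37.97 to 52.3), Cd209f 33.5-fold lower (30.7 to 36.6), Cd209b 23.2-fold lower (17.96 to 30.2) and Cd209d 20.1-fold lower (16.7 to 24.1). Clec10a was 2.98-fold lower (2.80 to 3.17) and Cd209a 1.58-fold lower (1.43 to 1.75). Among cells with C1q at 0.3 to 1% of UMIs the WD over HFD log2 ratio was -3.11 for Cd209g in place of -5.48, -2.78 for Cd209f in place of -5.07, -3.14 for Cd209b in place of -4.54, -3.15 for Cd209d in place of -4.33 and -0.62 for Clec10a in place of -1.58. That range also lies below the median C1q of 2.25% of C1q-high cells of HFD. After thinning, Cd209f was found in 0.915% (0.634 to 1.28) of C1q-high cells of WD, and Clec10a in 5.38% (4.68 to 6.16). Before thinning the WD shares were 3.93% and 37.5%, at a median of 12242 UMIs.

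The diet of the WD library and its preparation and processing cannot be told apart. The WD over CD ratio moved with the intronic length of a gene, with median log2 ratios of -0.71, -0.26, 0.53 and 1.83 in the quartiles with the least to the most intronic sequence, against 0.30 over all genes. The 6 members lie in quartiles 1 and 2. Cd209g is in quartile 1 with 0 intronic bases because annotated exons of its transcripts together cover its whole span. With ratios centred within quartiles, an alternative chosen after seeing the data, 5 members stayed lower in WD than in CD and Cd209a was higher (log2 0.80). Within Lyve1+ Ccr2- cells Cd209f was 27.5-fold lower (24.8 to 30.4) and Cd209g 35.5-fold lower (29.3 to 43.2) in WD than in CD, as large as over all C1q-high cells. The Lyve1 and Ccr2 classes of WD and CD were also read at unequal depths, here at medians of 12079 and 4701.5 UMIs.

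For Cd209a the WD result depended on the class and on the C1q level set. It was 3.09-fold lower (2.38 to 3.98) in Lyve1+ Ccr2- cells of WD than of CD, and had a ratio of 1.23 (1.04 to 1.45) in cells with both Lyve1 and Ccr2. Cells with both held 30.9% of its UMIs in WD and 12.4% in CD, with 23.8% and 13.6% of all UMIs. Cd209a was lower in WD than in CD with C1q set at 1% of UMIs (log2 -2.28), without C1q-high cells that held 2 or more markers of another class (-1.81) and without the 5% of cells with the most UMIs (-0.62). At least 2 dendritic markers were held by 920 of 3717 C1q-high cells in WD and by 52 of 2293 in CD. In dendritic-marked C1q-low cells Cd209a was 2.16-fold lower (1.94 to 2.39) in WD than in CD. This class too was read at unequal depths, with medians of 16337.5 UMIs in WD and 7369.5 in CD.

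**Figure D4:**
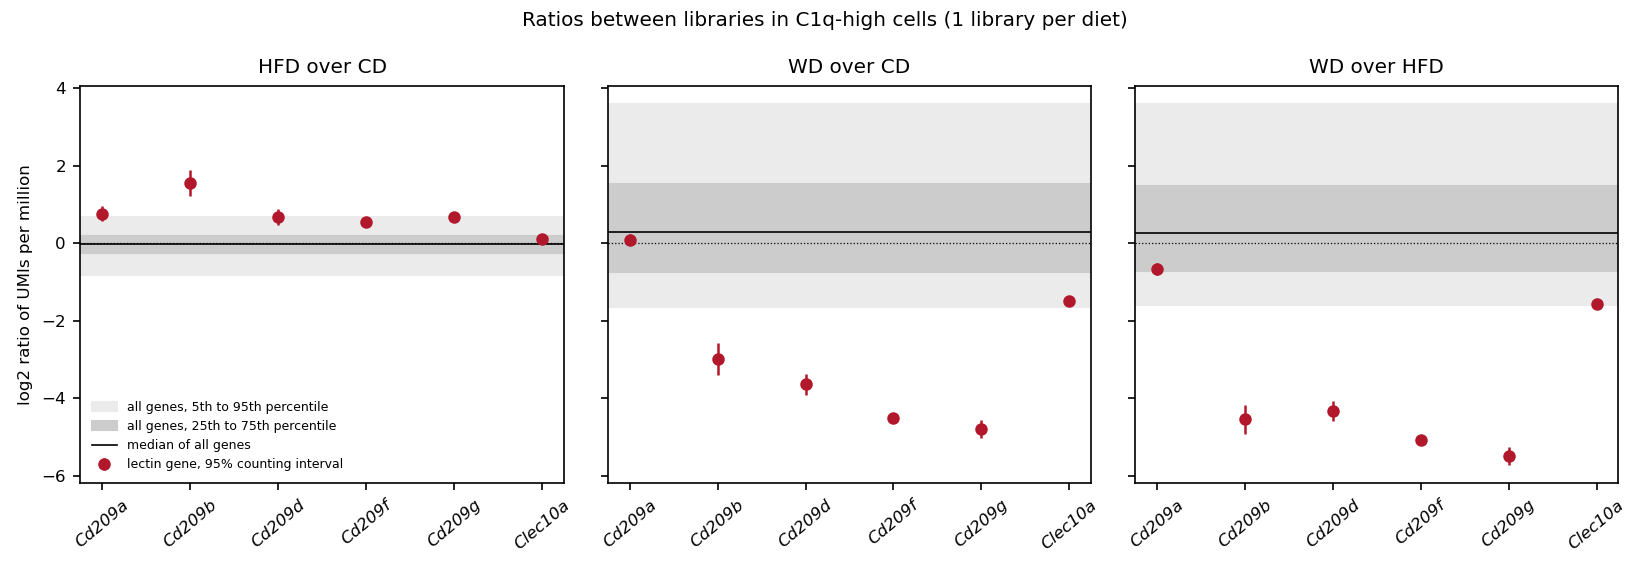
Log2 ratio of CPM in C1q-high cells for HFD over CD, WD over CD and WD over HFD, with 95% counting intervals for the 6 genes and grey bands for percentiles of all genes tested. In WD over CD, Cd209g stands at -4.80 and Cd209f at -4.51, and in HFD over CD they stand at 0.68 and 0.55.

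The Cd209 members were found together in C1q-high cells. After thinning, Cd209f and Cd209g shared 93 HFD cells where their separate shares give 12.5, and 82 CD cells where they give 10.97, which is 7.46 and 7.47 times as many. Of Cd209g-positive cells, 72.7% in HFD and 70.1% in CD also had Cd209f. Cd209d and Cd209f shared 44 HFD and 44 CD cells, 6.84 and 7.95 times the number from their shares. Cd209b and Cd209d shared 14 HFD and 6 CD cells, 14.6 and 14.6 times. Clec10a shared 82 HFD and 90 CD cells with Cd209f, 3.04 and 3.10 times. The same ratio for Mgl2 with Cd209f was 0.900 in HFD and 1.05 in CD, so the relative of Clec10a was found with Cd209f about as often as its share gives. In WD, Cd209f and Clec10a shared 9 cells, 4.92 times, and Cd209f and Cd209g 3 cells, for which no ratio is given.

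Cd209a also shared C1q-high cells with the other members. It was found with Cd209f in 38 HFD and 12 CD cells, 5.74 and 2.98 times the number from their shares. With Cd209d it shared 26 HFD and 8 CD cells, 11.6 and 7.23 times.

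Most macrophages had none of Cd209b, Cd209d, Cd209f and Cd209g. After thinning, 87.3% of HFD, 98.7% of WD and 88.4% of CD C1q-high cells had 0 of these 4 genes, and 11, 0 and 4 cells had all 4. Without thinning 82.0%, 94.0% and 80.1% had 0 of the 4. A Cd209f-positive cell held a median of 4 Cd209f UMIs in HFD, 2 in WD and 4 in CD, and at most 80, 37 and 81. The cells with 10 or more numbered 75 in HFD, 18 in WD and 89 in CD, so a small number of cells carried many of the counts.

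Cd209f-positive C1q-high cells differed from Cd209f-negative ones in other macrophage genes. Folr2, a folate receptor of resident macrophages, had 2067 against 887 CPM in HFD, 823 against 462 in WD and 1793 against 934 in CD. Cd163, a scavenger receptor for haemoglobin, had 399.9 against 178 CPM in HFD, 924 against 648 in WD and 381 against 199.5 in CD. H2-Ab1 had 5333 against 11524 CPM in HFD, 2154 against 2995 in WD and 4149 against 7288 in CD. In each library Folr2 and Cd163 were higher and H2-Ab1 was lower in the positive cells, with median UMIs of 3395 against 2845 in HFD, 17954.5 against 12173 in WD and 4848 against 4200 in CD.

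Genes most like a member were ranked by the smallest ratio, over libraries, of their CPM in member-positive over member-negative thinned C1q-high cells. Clec10a alone had at least 100 positive cells in each of the 3 libraries, and of 954 genes the leading 5 were Ccl8, Fcna, C4b, Ccl24 and Ednrb. Ccl8, a chemokine gene, had 1917 CPM in positive and 433 in negative cells of HFD, 260 and 59.7 in WD, and 1732 and 603 in CD. The smallest ratios ran from 2.87 for Ccl8 to 1.94 for Ednrb. For Cd209f, over HFD and CD, an extension chosen after the numbers of positive cells were seen, the leading genes were Cd209g (37.3 in HFD and 28.2 in CD), Cd209d (26.4 and 34.8), Ccl8 (7.14 and 5.77), Clec10a (4.82 and 4.73) and the phospholipase gene Pla2g2d (4.50 and 4.44). For Cd209g they were Cd209f, Cd209d, Ccl8, Clec10a and Pla2g2d, with Cd209f at 27.3 in HFD and 22.04 in CD.

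**Figure D5:**
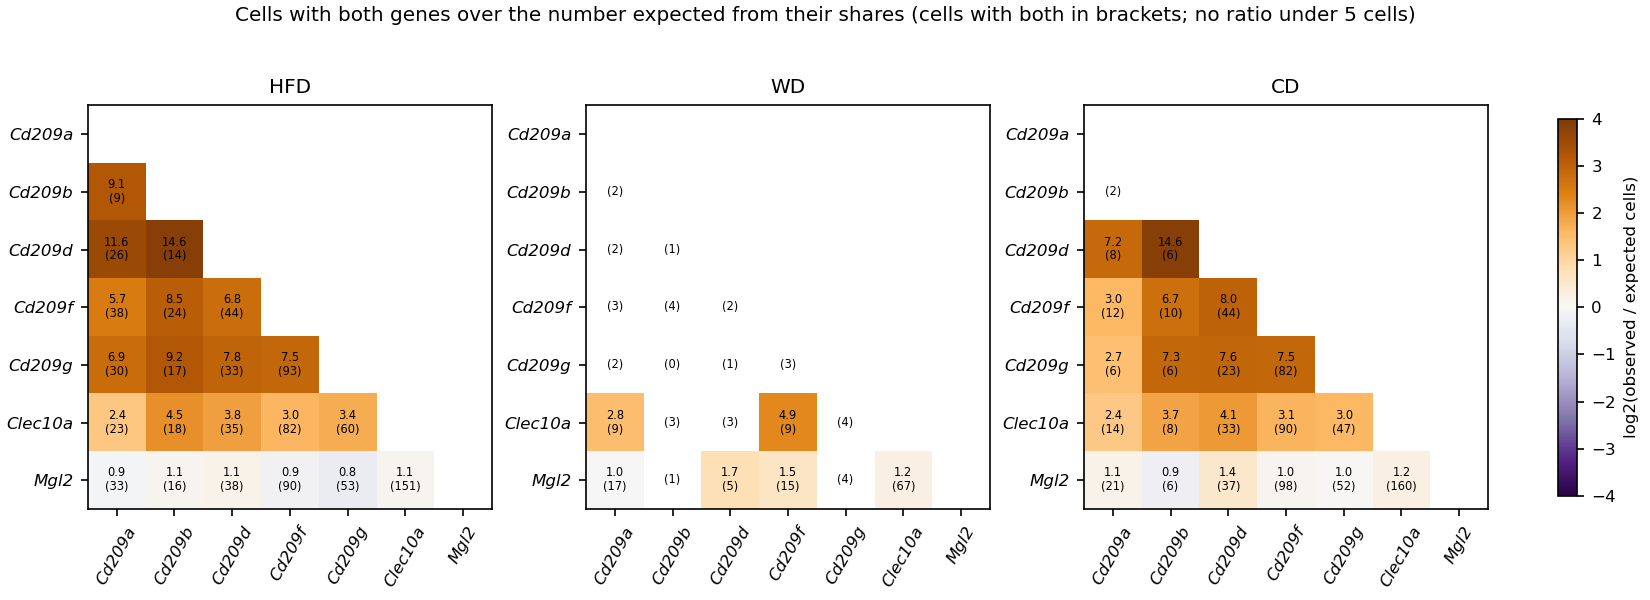
Log2 of the number of cells with both genes of a pair over the number from their separate shares, in C1q-high cells thinned to 1000 UMIs of the HFD, WD and CD libraries, with the number of cells in brackets and no ratio under 5 cells. The Cd209f and Cd209g pair has 93 cells in HFD and 82 in CD, and Cd209f with Mgl2 has 90 and 98, near the number from their shares.

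Of the other genes at the Cd209 locus, Cd209c had 4 UMIs in HFD and 3 in CD in C1q-high cells, Cd209e 5 and 5, Clec4g 1 and 6, and Fcer2a 0 and 6, too few for a ratio. In WD, Cd209c had 196 UMIs (3.27 CPM), against 3 in CD (0.263 CPM), a ratio of 12.4 (4.19 to 60.8). Dendritic-marked C1q-low cells of WD had 37.1 (31.4 to 43.6) CPM of Cd209c, found in 28.2% of 216 cells. Cd209c was thus higher in WD than in CD, where Cd209f and Cd209g were lower. Of the 3 other locus genes with enough UMIs in that comparison, 1 was called higher and 2 in neither direction, beside 43.4% of all genes called higher. Cd209h was not analysed here. Mgl2 had 998 CPM in HFD and 776 in CD, a ratio of 1.29, and 389 in WD, a ratio to CD of 0.502. Asgr2, a subunit of the asialoglycoprotein receptor, had 11.1 CPM in HFD, 3.84 in WD and 10.4 in CD. Asgr1, the other subunit, had too few UMIs for a ratio.

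Of 18 other myeloid C-type lectins 17 were measured. In HFD against CD 0 of 15 with enough UMIs were higher and 3 were lower, beside the 4.38% and 5.85% of all genes given above, with a median log2 ratio of -0.24, against 0.68 for the 6 members and -0.03 for all genes. Clec4e, which senses mycobacterial glycolipids, had 2.12 CPM in HFD and 11.9 in CD. Clec4d, its neighbour and partner, had 15.8 CPM in HFD and 37.2 in CD. In WD against CD 7 of 17 were higher and 9 lower, beside 43.4% and 25.3% of all genes, with a median log2 ratio of -0.98, against -3.32 for the members and 0.30 for all genes. Past 2-fold and with at least 100 UMIs, the WD over CD ratio was 7.002 for Clec4e, 5.42 for Colec12, 5.07 for Clec9a, 3.79 for the mannose receptor gene Mrc1, 3.06 for Clec2d and 2.002 for Clec4d. It was 0.306 for Clec4a2, 0.316 for Clec4b1, 0.319 for Clec4n, 0.344 for Clec5a, 0.353 for Clec12a, 0.415 for Cd207, 0.442 for Cd302 and 0.484 for Clec4a3.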

How the data were processed

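The files hold UMI counts per gene and barcode, deposited by the authors, from software 3.0.1 (CD, HFD) and cellranger 7.2.0 (WD), per the file headers. The build GRCm38 and Seurat are named in the submitters' processing notes. The sources used here do not give intron counting, cell filters or pooling of animals. The 6 members, marker lists and comparisons were chosen with earlier results of these data known.

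Barcodes with at least 1000 UMIs, 200 genes and at most 10% mitochondrial UMIs were kept, over 30406 shared genes. UMIs were summed per library and class and divided by all UMIs of the class (CPM). Intervals are exact Poisson for CPM, exact conditional for ratios and Clopper-Pearson for shares, at 95%. Thinning drew 1000 UMIs per cell. Doublets were not removed, and an alternative drops the 5% of cells with the most UMIs. With 1 library per diet no test was run. Named were all 6 members, all Cd209 locus genes and galactose-type lectins, other myeloid lectins past 2-fold with at least 100 UMIs over both groups, and 5 like genes per member with at least 100 positive cells per library. Genes matched GENCODE vM21 in 30329 of 30406 cases. Python 3.11.15, NumPy 2.4.6, SciPy 1.17.1, pandas 2.3.3, Biopython 1.88 and matplotlib 3.10.9 were used, and the scripts were checked on simulated data.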

Additional observations from a re-analysis of the deposited data

Results flagged for a closer look

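The Lyve1 and Ccr2 split of Cd209d had opposite directions between libraries. Its log2 ratio of Lyve1+ Ccr2- over Lyve1- Ccr2+ cells was 4.02 in HFD, -0.99 in WD and 4.33 in CD, and the difference between libraries was not tested. Under 12 other settings the WD call was lost in 6, and its direction reversed in 2 of them.

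Members were also counted in barcodes that the comparisons do not use. Among barcodes over the mitochondrial limit, 367 in HFD and 181 in CD, Cd209f had 272 CPM in HFD and 88.9 in CD. Cd209g had 124 in HFD and 25.4 in CD, and Cd209d 76.8 and 10.2. These 3 were higher in HFD. Cd209b had 17.8 CPM there in HFD and 7.62 in CD, Cd209a 52.1 and 53.4, and Clec10a 208.6 and 180.4. Among barcodes of at most 100 UMIs, the HFD levels were 191 CPM for Cd209f, 66.7 for Cd209g, 33.02 for Cd209d, 17.4 for Cd209b, 63.01 for Cd209a and 107 for Clec10a. The CD levels were 78.8, 33.5, 8.69, 3.72, 42.8 and 72.6 CPM in the same order of genes. These differences were not tested.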

How the results depend on the processing

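No paired analysis was possible because each diet has 1 library. Of the values recomputed for single genes, 334 moved by less than their counting interval, 104 moved and 6 reversed; of the counts and shares, 116 stayed and 14 moved. The HFD over CD count of 4 members was 1 without the 5% of cells with the most UMIs, 2 with cells weighted equally and 2 with cells thinned. The count of 6 members past 1.5-fold in the WD split was 2 with C1q at 1% of UMIs and 3 with cells thinned. The share of C1q-low Cd209a UMIs in dendritic-marked cells was 38.4% with C1q at 1%, 15.4% with 3 or more markers and 62.9% with 1 or more in HFD. In WD it was 67.9% with C1q at 1%, 77.8% without the 5% of cells with the most UMIs and 67.1% with 3 or more markers. In CD it was 44.3% without those 5% of cells, 9.18% with 3 or more markers and 74.8% with 1 or more. Reversed log2 ratios of the split were those of Cd209a in HFD, at 0.88 with C1q at 1% and 0.17 without the 5% of cells with the most UMIs. The others were Cd209d in WD, at 0.20 with at most 5% mitochondrial UMIs and 0.23 without cells holding markers of another class, and Cd209g in WD, at -0.11 with cells thinned. Cd209a in WD over HFD was 0.046 when centred within quartiles of intronic length. That centring, and the restriction to C1q at 0.3 to 1% of UMIs, under which Cd209b in WD over CD was -0.47 and no longer called, were chosen after seeing the data. The cause was not tested for any of these.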
